A study of Mus musculus with 16 samples.

Results

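Stool bacteria of healthy Msc knock-out (KO) and wild-type (WT) mice were compared in 8 of the 16 libraries of the series, 4 of each genotype, all labelled healthy and taken at time point 0. The comparison takes every library with those labels, and it covers all 476 of the 1330 amplicon sequence variants (ASVs, distinct 16S rRNA gene sequences) that had reads in at least 1 of the 8. The other 8 libraries came from WT and KO mice with colitis induced by dextran sulfate sodium (DSS) at time point 1. They enter the fits through the read minimum, the scale factors and a shared estimate of spread. Fitted changes between healthy libraries therefore depend in part on them. Elsewhere they appear where healthy values are set beside those under DSS. Strain, sex, age, cage, and how Msc was removed and in which cells are not given in the sources used here. Genotype and cage cannot be told apart. No mouse gene was measured, so the genotype labels cannot be checked in these data. Nothing in the labels says that the 4 libraries of a group came from separate animals, and p-values measure the spread between these libraries, which may be partly technical.

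The Msc gene codes for musculin, a transcription factor of the basic helix-loop-helix class known for its part in the development of regulatory T cells outside the thymus. Such cells hold back immune responses to gut bacteria, and the stool community is in turn shaped by diet, by the mucus layer and by host immunity. In laboratory mice that community is dominated by Bacteroidota, which break down plant and mucus glycans, and by Firmicutes, which include lactic acid bacteria and the many Clostridia that ferment fibre to short-chain fatty acids. The question was which of these groups differ when Msc is lost in the absence of colitis. No sequences of the ASVs were used here. ASVs are named by a number in descending order of their total reads over the 16 libraries, and by the deposited taxonomy.

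The 8 libraries held 49253 to 66371 reads, and 3 reads, the number that a count of 0 allows, came to 0.00452% to 0.00609% of a library. A share of 1% in the shallowest library has a 95% Wilson interval of 0.917% to 1.09%, and a share of 0.1% one of 0.0753% to 0.131%. Such limits cover counting error only, PCR copies not being separate molecules, and replicates spread far more than that, the chi-square between libraries of a group being 35 to 95.6 times its degrees of freedom. All 8 were distinct libraries by that measure. Among the DSS libraries 1 stood apart, WT DSS replicate 1, which held 844 ASVs against 172 to 280 in the other 15, and calls lost without it are named below.

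Healthy KO stool held more Muribaculaceae and less of 3 clostridial groups than healthy WT stool. Of 66 genus labels tested, 1 rose and 3 fell, 6.06% in all (edgeR quasi-likelihood test, Benjamini-Hochberg adjusted p under 0.05). The genus label that rose was Muribaculaceae, and those that fell were Clostridia UCG-014, Ruminococcus and Monoglobus. A further 11 labels had an unadjusted p under 0.05 and did not pass. The 4 that passed were also separate in every library, each KO share lying beyond all WT shares. That holds for 14 of the 66 labels tested, or 21.2%, so separation alone was common. The fitted changes are relative to a scale set by the bulk of the genera (TMM factors), on which the median genus stood at -0.35 (log2, KO minus WT). On total reads alone that median was -0.70 and on centred log-ratio values 0.16, and the 4 called labels kept their direction on each of these scales. Of 26 family labels tested, 1 rose and 2 fell, 11.5% in all: Muribaculaceae rose, and Ruminococcaceae and Monoglobaceae fell. Of 308 ASVs tested, 10 rose and 12 fell, 7.14% in all. At an unadjusted p under 0.05 the counts were 15 genera, 8 families and 63 ASVs.

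**Figure D1:**
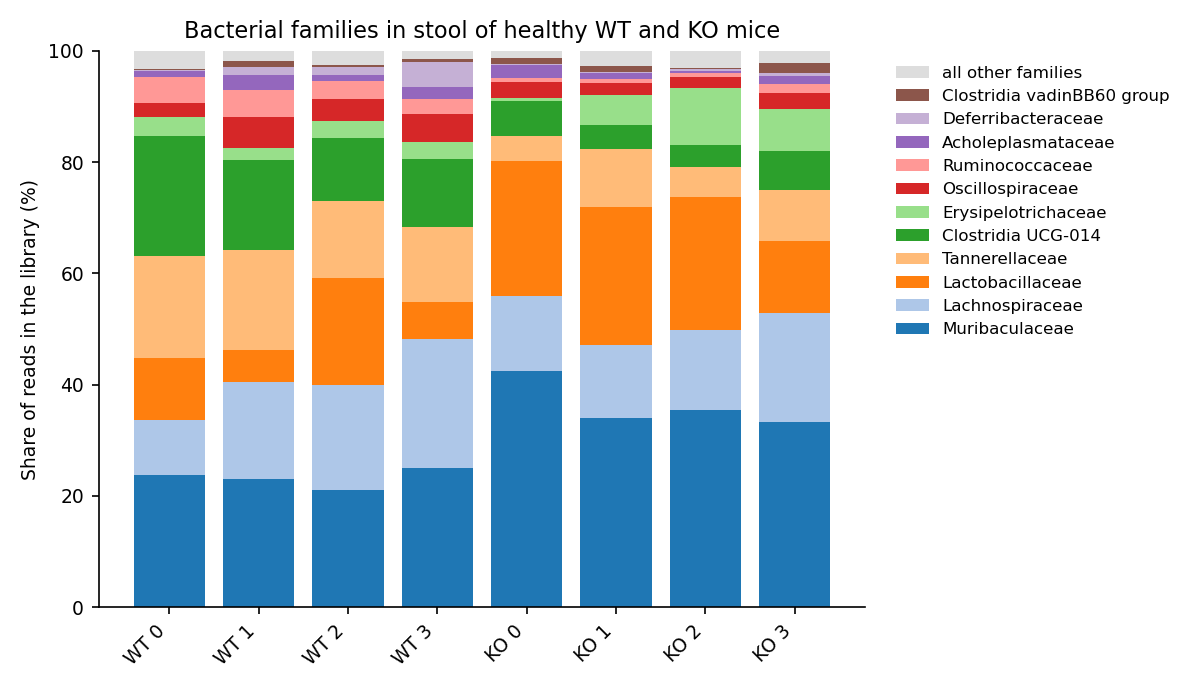
Share of reads (%) of the 11 most abundant families and of all others in each of the 8 healthy libraries, 4 WT and 4 KO, each bar adding up to 100%. Muribaculaceae took 21% to 25.1% in WT and 33.3% to 42.5% in KO libraries, and Clostridia UCG-014 took 11.2% to 21.5% in WT and 4.01% to 6.98% in KO.

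The Bacteroidota were almost wholly 2 kinds of bacteria, and these stood apart in opposite directions. Muribaculaceae, a family of glycan degraders typical of the mouse gut, took 23.7%, 23.1%, 21% and 25.1% of reads in WT replicates 0 to 3. In KO replicates 0 to 3 it took 42.5%, 34.1%, 35.5% and 33.3%. Every KO library lay above every WT library, and means were 23.2% ± 1.68 and 36.3% ± 4.19 (SD, n = 4 each), a ratio of 1.56. At genus rank the log2 change was 0.97 ± 0.19 (SE, edgeR adjusted p = 0.00265) and at family rank, where the same reads meet another scale, 1.33 ± 0.20 (edgeR adjusted p = 8.29e-05). The genus call was lost without WT replicate 1 (edgeR adjusted p = 0.0749) or WT replicate 2 (edgeR adjusted p = 0.0767), and without the filter on reads (log2 0.88, edgeR adjusted p = 0.295). The family call was lost without KO replicate 0 (log2 0.46), 1 (log2 0.53) or 2 (log2 0.31). On total reads alone the change was 0.62 at genus rank (edgeR adjusted p = 0.00377).

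The Muribaculaceae reads came from 2 ASVs that kept a fixed proportion. The larger, asv1, took 18%, 17.5%, 15.9% and 18.9% of WT reads and 32.4%, 25.7%, 27% and 25.4% of KO reads (log2 0.92 ± 0.24, edgeR adjusted p = 0.0404), a call lost without WT replicate 2 (0.0985), KO replicate 0 (0.0518) or KO replicate 1 (0.0556), and with RLE factors (0.0581), limma on centred log ratios (0.197), no filter (0.0619) or the replicate number as a block (0.0849). The smaller, asv3, took 5.1% to 6.15% in WT and 7.92% to 10% in KO libraries and did not pass (log2 0.90 ± 0.29, edgeR adjusted p = 0.0744). Neither ASV's groups overlapped. The reads of asv1 over those of asv3 came to 3.12 ± 0.0393 in WT and 3.17 ± 0.0659 in KO libraries, with single libraries between 3.07 and 3.23, so both sequences differed between genotypes by nearly the same factor.

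The other Bacteroidota were Parabacteroides, saccharolytic relatives of Bacteroides. They consisted of a single ASV, asv2, assigned to Parabacteroides goldsteinii. Its share was 18.2%, 18%, 13.9% and 13.4% in WT replicates 0 to 3 and 4.54%, 10.5%, 5.37% and 9.05% in KO replicates 0 to 3. No KO library reached the lowest WT library, and the means were 15.9% ± 2.58 and 7.35% ± 2.85 (SD, n = 4 each), yet the label did not pass at genus rank (log2 -0.83 ± 0.33, edgeR adjusted p = 0.169). On total reads alone it passed (log2 -1.13, edgeR adjusted p = 0.00523). All remaining Bacteroidota stayed at or below 0.0234% of any healthy library. The ratio of Muribaculaceae to Parabacteroides, set up after these values had been seen and given without a test, was 1.3, 1.28, 1.51 and 1.87 in WT replicates 0 to 3 and 9.35, 3.26, 6.61 and 3.68 in KO replicates 0 to 3.

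The phylum as a whole did not pass the test. Bacteroidota averaged 39.1% ± 3.15 in WT and 43.7% ± 2.69 in KO libraries, and Firmicutes 58.6% ± 3.15 and 55.2% ± 2.61 (SD, n = 4 each), with overlapping groups for both. None of the 5 phyla with a mean of at least 0.1% passed the two-sided exact permutation test on log2 of percent plus 0.01 (lowest adjusted p = 0.286). With 4 libraries against 4 that test cannot give a p below 0.0286. The log2 ratio of Firmicutes to Bacteroidota, a common summary of gut communities, was 0.443, 0.472, 0.856 and 0.566 in WT and 0.149, 0.285, 0.511 and 0.41 in KO replicates 0 to 3. The difference was -0.245 (exact permutation p = 0.114). Deferribacterota averaged 1.83% ± 1.8 and 0.348% ± 0.172, Actinobacteriota 0.339% ± 0.199 and 0.552% ± 0.299, and Proteobacteria 0.14% ± 0.0729 and 0.192% ± 0.135 in WT and KO libraries.

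Clostridia UCG-014, a lineage of uncultured Clostridia named from sequence alone, had the highest adjusted p of the genus labels that passed. Its share was 21.5%, 16.1%, 11.2% and 12.2% in WT replicates 0 to 3 and 6.17%, 4.25%, 4.01% and 6.98% in KO replicates 0 to 3. The groups did not overlap, and the means were 15.3% ± 4.65 and 5.35% ± 1.46 (SD, n = 4 each), 2.85 times more in WT. The label fell by 1.27 on the log2 scale at genus rank (SE 0.33, edgeR adjusted p = 0.0228). This call was fragile: of 19 alternatives it was kept in 5, and without WT replicate 0, the highest library, the log2 change was -0.61 (edgeR adjusted p = 0.458). At family rank the same reads gave a log2 change of -0.86 ± 0.31 that did not pass (edgeR adjusted p = 0.0517), although it passed in 12 of 19 alternatives (adjusted p from 0.000359 to 0.216 over the 19). Libraries whose removal ended the genus call were WT replicates 0, 1 and 2 and KO replicates 1, 2 and 3, with adjusted p between 0.0514 and 0.458, and WT DSS replicate 1, with 0.185.

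**Figure D2:**
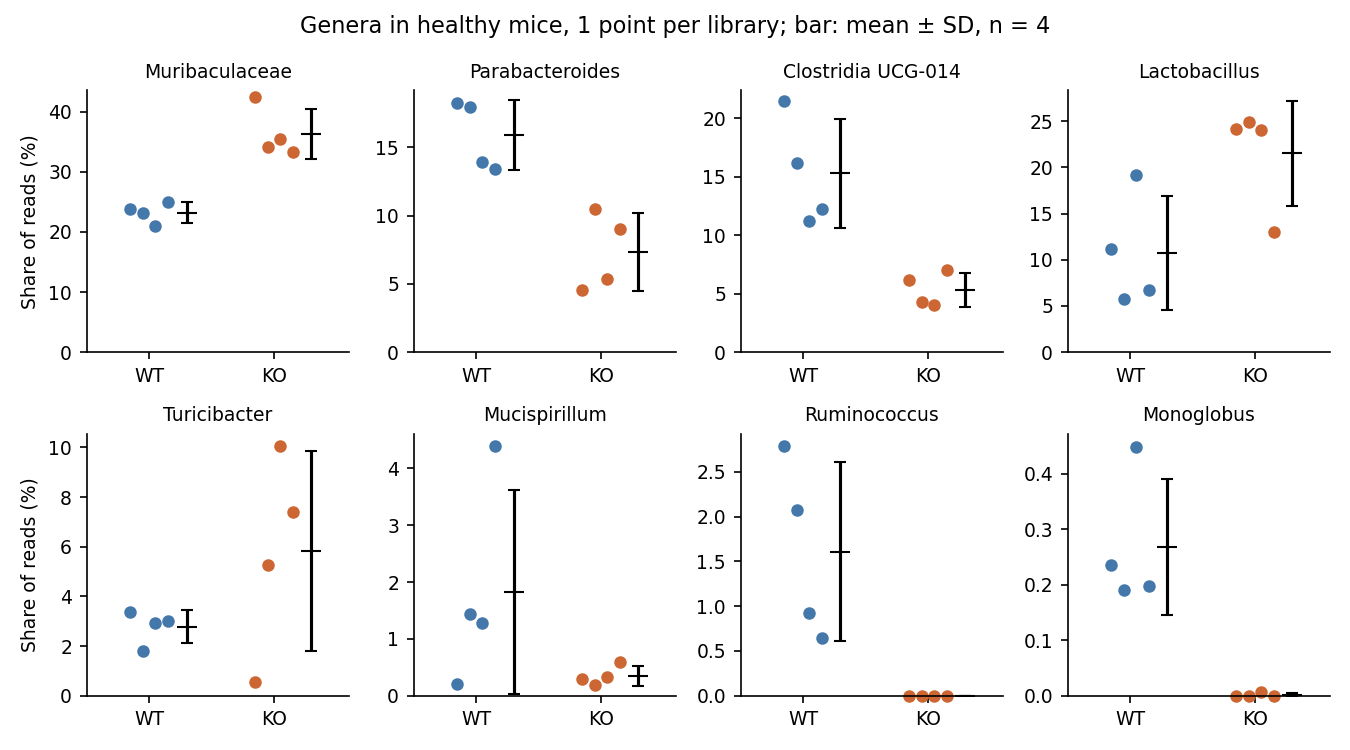
Share of reads (%) of 8 genus labels in 4 WT and 4 KO healthy libraries, 1 point per library in order of replicate number, with the mean and SD (n = 4) as a bar beside the points and each vertical axis starting at 0. Muribaculaceae lay higher in every KO library, Parabacteroides, Clostridia UCG-014, Ruminococcus and Monoglobus lay lower in every KO library, and Lactobacillus, Turicibacter and Mucispirillum overlapped.

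The lower share of Clostridia UCG-014 came with more, not fewer, sequence variants. WT libraries held 23, 24, 22 and 21 of its ASVs and KO libraries 28, 26, 26 and 25, with no overlap between the groups (22.5 ± 1.29 and 26.2 ± 1.26). Of the 55 ASVs seen in healthy mice, 24 had reads in both genotypes, 12 in WT only and 19 in KO only. Over all 476 ASVs with healthy reads these counts were 262, 115 and 99. The ASVs of WT only held a mean of 17.3% of the WT reads of the label, and those of KO only held 16.9% of its KO reads. The shared ASVs alone took 20.1%, 15.6%, 9.43% and 6.87% of all reads in WT replicates 0 to 3 and 5.05%, 3.45%, 3.31% and 6.06% in KO replicates 0 to 3. These did not overlap either, and they came nearest in WT replicate 3, where ASVs of WT only reached 5.35% of all reads.

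Of the 35 ASVs of this label that were tested, 3 rose and 3 fell, beside 10 and 12 of 308 over all ASVs. Among the called ASVs of the label, asv183 and asv229 met the read minimum in 1 healthy genotype alone and so had to differ. Through KO libraries alone, healthy or with DSS, asv52 and asv190 met it. Among those that fell, asv5 took 9.73%, 3.24%, 2.47% and 1.33% of WT reads and 0.93%, 0.338%, 0.0639% and 0.922% of KO reads (log2 -2.86 ± 0.78, edgeR adjusted p = 0.0404). That call was lost without any 1 healthy library but WT replicate 3, and without WT replicate 0 the log2 change was -1.42 (edgeR adjusted p = 0.276). Next, asv20 took 0.906%, 0.219%, 1.48% and 5.22% in WT and had no read in KO libraries, at least 359-fold lower against 3 reads per library (edgeR adjusted p = 0.0183, or 0.0556 without KO replicate 1). The other, asv229, averaged 0.0886% in WT and had no read in KO. The 3 that rose, asv52, asv183 and asv190, had no read in any healthy WT library and averaged 0.249%, 0.135% and 0.0615% in KO. The largest ASV that did not pass, asv6, averaged 4.14% ± 1.5 in WT and 1.56% ± 0.616 in KO without overlap (log2 -1.16 ± 0.59, edgeR adjusted p = 0.27). The median log2 change over the 35 was 0.0209, beside -0.14 over all 308 ASVs tested.

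**Figure D3:**
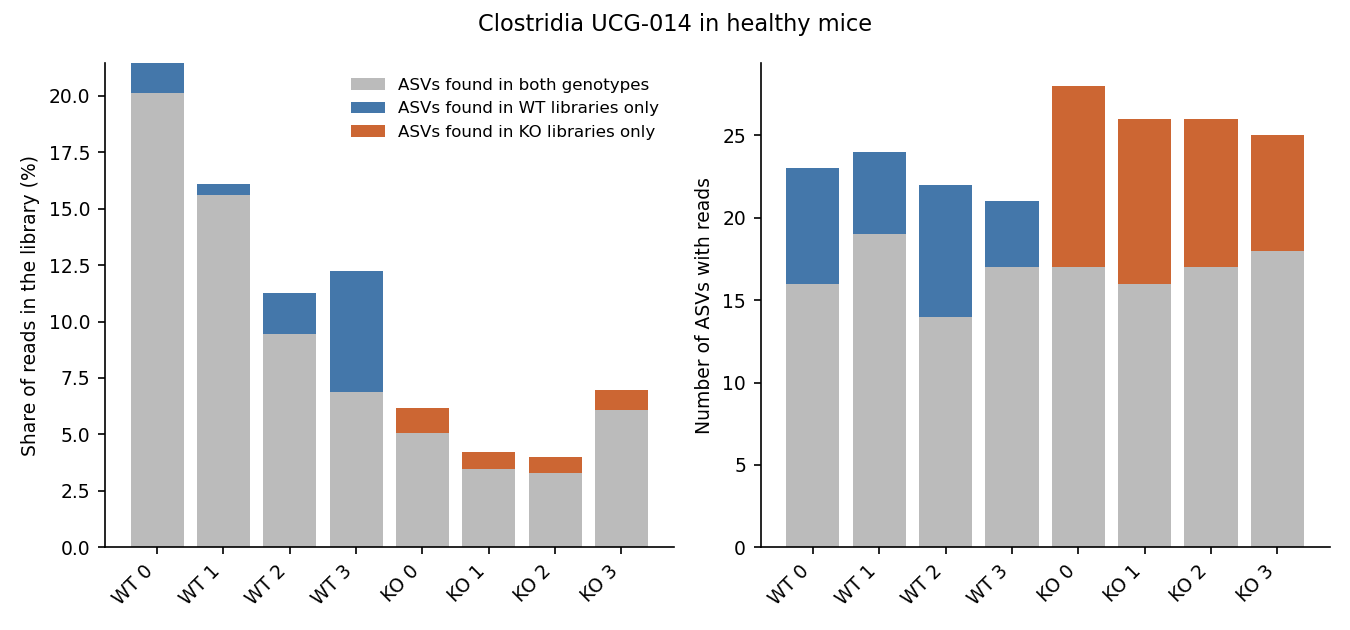
Clostridia UCG-014 in the 8 healthy libraries, as the share of reads (left, %) and the number of ASVs with reads (right), with ASVs grouped by the genotype whose healthy libraries hold them. KO libraries held 25 to 28 ASVs in 4.01% to 6.98% of their reads, and WT libraries 21 to 24 ASVs in 11.2% to 21.5%.

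Among the genus labels, Ruminococcus and Monoglobus gave the clearest losses. Ruminococcus, a genus known for breaking down cellulose and resistant starch, took 2.78%, 2.08%, 0.923% and 0.646% of reads in WT replicates 0 to 3 and had no read in any healthy KO library. Against 3 reads per library, its share was at least 295-fold lower in KO, and it passed in the fit and in all 19 alternatives (edgeR adjusted p = 6.29e-05, between 8.99e-19 and 0.00141 in the alternatives). Its reads came from 2 ASVs, of which asv24 was in all 4 WT libraries at 2.29%, 0.68%, 0.923% and 0.646%. Monoglobus, a pectin degrader, took 0.236%, 0.191%, 0.449% and 0.197% in WT replicates 0 to 3. In KO it had reads in replicate 2 alone, at 0.0071%, and the KO mean lay below the 3-read level, so no fold is given. It passed at genus rank (edgeR adjusted p = 0.00265) and in all 19 alternatives there (up to 0.0195).

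These genera do not span all fibre degraders. The Eubacterium xylanophilum group, bacteria that use xylan, averaged 0.754% ± 0.702 in WT and 0.951% ± 0.228 in KO libraries (edgeR adjusted p = 0.774). Over the list of plant fibre and pectin degraders, which had reads in those 3 genera, 2 of 5 tested ASVs fell and none rose. Over all ASVs 12 of 308 (3.9%) fell. The 2 that fell were the Ruminococcus and Monoglobus sequences, whose genera are described above. The list was also chosen with earlier results of these data known. Its values thus restate those calls and add no separate evidence. The summed share of the list was 1.23% to 3.42% in WT and 0.655% to 1.21% in KO libraries. The median log2 change of its tested ASVs was -1.13, beside -0.14 over all ASVs tested.

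The family Ruminococcaceae, fermenters of complex carbohydrates that include Ruminococcus, fell. It took 4.55%, 4.81%, 3.15% and 2.75% of reads in WT replicates 0 to 3 and 0.878%, 0.773%, 0.76% and 1.65% in KO replicates 0 to 3. The groups did not overlap, the WT mean was 3.75 times the KO mean, and the log2 change was -1.25 ± 0.38 (edgeR adjusted p = 0.0359). The call was lost without WT replicate 0 (edgeR adjusted p = 0.103), 1 (0.059) or 2 (0.0551), and with limma on centred log ratios (0.0571), no filter (0.0575) or a filter of 20 reads (0.076). Ruminococcus was not its only lower member. A label with no finer name than Ruminococcaceae, the single sequence asv13, took 0.494% to 1.01% in WT and 0.0639% to 0.229% in KO libraries without overlap (genus rank, log2 -2.13 ± 0.91, edgeR adjusted p = 0.196). Incertae Sedis of the family averaged 0.301% ± 0.0953 and 0.118% ± 0.0265, also without overlap (edgeR adjusted p = 0.419). In the other direction, Anaerotruncus of this family averaged 0.0304% ± 0.0203 in WT and 0.135% ± 0.0475 in KO libraries. Its groups did not overlap, and it did not pass (edgeR adjusted p = 0.169). Of 25 Ruminococcaceae ASVs tested, 4 fell and none rose, with a median log2 change of -0.93, beside 12 of 308 (3.9%) that fell over all ASVs. Among the 4, asv397 met the read minimum in healthy WT libraries alone.

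Butyrate producers as a group did not separate. Butyrate, made by several clostridial genera, feeds the colon lining. The list had reads in 9 genus labels, and its summed share was 3.27%, 5.25%, 6.47% and 4.45% in WT and 2.03%, 2.19%, 2.28% and 4.4% in KO replicates 0 to 3. KO replicate 3 alone overlapped the WT range. That library held 2.4% Roseburia, a butyrate producer at 0.183% to 0.353% in the other KO libraries and 0.215% to 0.285% in WT. None of the 23 tested ASVs of the list passed, beside 22 of 308 (7.14%) over all ASVs. That lack of calls is no result about the list. The median log2 change of its tested ASVs was -0.76, beside -0.14 over all ASVs tested. The Eubacterium ventriosum group, also on this list, was seen in healthy WT replicates 0, 1 and 2 at 1.76%, 2.19% and 1.76% as the single sequence asv34. It had no read in WT replicate 3, in any KO library or under DSS, and it met the read minimum in too few libraries to be tested.

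Among other Clostridia, the families Lachnospiraceae and Oscillospiraceae, large groups of fibre and amino acid fermenters, overlapped between genotypes. Lachnospiraceae took 9.91%, 17.4%, 18.9% and 23.1% in WT and 13.5%, 13%, 14.3% and 19.5% in KO replicates 0 to 3 (log2 0.49 ± 0.28, edgeR adjusted p = 0.209), a direction that turned to -0.20 on total reads alone. Of its 113 tested ASVs, 4 rose and 2 fell, with a median of -0.14. Over all ASVs 7.14% were called, so 6 of 113 is no result about the family. Oscillospiraceae averaged 4.31% ± 1.36 and 2.45% ± 0.369 (log2 -0.12 ± 0.39, edgeR adjusted p = 0.876), and 1 of its 49 tested ASVs fell. The Lachnospiraceae NK4A136 group, the fifth genus label in abundance, averaged 5.21% ± 3.18 and 7.47% ± 1.21 (log2 0.91 ± 0.51, edgeR adjusted p = 0.309). Its 24 ASVs included 10 seen in KO only and 1 in WT only, beside 99 and 115 of 476 over all ASVs with healthy reads. WT libraries held 12 to 14 of the 24 against 16 to 19 in KO. Unclassified Lachnospiraceae averaged 6.1% ± 1.52 and 4.08% ± 0.914 (log2 -0.23 ± 0.35, edgeR adjusted p = 0.751), and that sign turned on 2 other scales. Its most abundant sequence, asv17, took 1.4%, 2.89%, 2.82% and 2.39% of reads in WT and 0.261%, 0.279%, 0.336% and 0.473% in KO replicates 0 to 3. The groups were far apart, with a WT mean 7.04 times the KO mean, but the ASV did not pass (log2 -2.54 ± 1.38, edgeR adjusted p = 0.298). It passed when the healthy libraries were fitted alone (log2 -2.38, edgeR adjusted p = 0.00962). Lachnoclostridium averaged 1.38% ± 1.07 and 0.37% ± 0.245 (edgeR adjusted p = 0.309), unclassified Oscillospiraceae 1.89% ± 0.715 and 0.95% ± 0.226 (edgeR adjusted p = 0.458), and Colidextribacter 0.955% ± 0.155 and 0.76% ± 0.159 (edgeR adjusted p = 1).

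Lactic acid bacteria had the second largest difference in mean share but varied between libraries of a group. All were Lactobacillus, which ferments sugars in the upper gut. Its share was 11.2%, 5.75%, 19.2% and 6.71% in WT and 24.2%, 24.9%, 24% and 13.1% in KO replicates 0 to 3. KO replicate 3 lay below WT replicate 2, and the means of 10.7% ± 6.14 and 21.5% ± 5.66 (SD, n = 4 each) did not differ past the threshold (genus rank, log2 1.42 ± 0.66, edgeR adjusted p = 0.208). Lactobacillus murinus was present as asv4 and asv14, whose read ratio stayed between 4.54 and 5.26 in the 8 libraries. Together they made up 63.6%, 39.6%, 63% and 45.7% of Lactobacillus reads in WT and 96.5%, 60.1%, 74.1% and 42.6% in KO replicates 0 to 3. Lactobacillus johnsonii, asv8, averaged 4.28% ± 1.5 in WT and 6.08% ± 3.82 in KO, with its lowest share, 0.829%, in KO replicate 0.

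KO replicate 0 was also the lowest library for other Firmicutes that were more abundant in the remaining KO libraries. Turicibacter, a spore-forming member of the Erysipelotrichaceae found in the small intestine, took 3.36%, 1.81%, 2.92% and 3.01% in WT. In KO it took 0.56%, 5.24%, 10.1% and 7.39% (log2 1.42 ± 0.63, edgeR adjusted p = 0.2). Clostridium sensu stricto 1, which holds the type species of Clostridium, took 0.0772% to 0.336% in WT and 0%, 0.655%, 1.63% and 0.655% in KO (edgeR adjusted p = 0.208). Without KO replicate 0 both passed, Turicibacter at log2 1.80 (edgeR adjusted p = 0.0212) and Clostridium sensu stricto 1 at log2 2.74 (edgeR adjusted p = 0.00948). That library held the highest Muribaculaceae share of the 8, 42.5%.

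Bacteria that live in mucus or bloom in inflamed gut gave no call. Mucispirillum, a mucus dweller and the only Deferribacterota genus here, took 0.197%, 1.44%, 1.28% and 4.39% in WT and 0.287%, 0.185%, 0.332% and 0.589% in KO replicates 0 to 3 (log2 -1.99 ± 0.85, edgeR adjusted p = 0.196). WT replicate 0 lay within the KO range. The other mucus dwellers on the list, Akkermansia, Helicobacter and Candidatus Arthromitus, had no read in the 8 libraries, which allows each at most 0.00452% to 0.00609%. Sulfate reducers of the order Desulfovibrionales likewise had no read. Enterobacterales and Enterococcus, facultative anaerobes that can expand in colitis, summed to 0.0437% to 0.213% in WT and 0.0945% to 0.418% in KO libraries. None of their 3 tested ASVs passed, beside 22 of 308 (7.14%) over all ASVs. Under DSS the means of that list were 4.89% in WT and 6.53% in KO mice, so healthy libraries of both genotypes were low. Genera of skin, reagents and soil summed to at most 0.0118% of a library and organelle sequences to at most 0.0109%.

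Of the remaining lists, 1 stood apart between genotypes. Gut Actinobacteriota were a single ASV of Adlercreutzia, a relative of Eggerthella that converts plant isoflavones, at 0.167% to 0.627% in WT and 0.183% to 0.909% in KO libraries. Erysipelotrichales, mostly Turicibacter, summed to 2.3% to 4.46% and 0.734% to 10.3%, and none of 9 tested ASVs passed. Wall-less Bacilli, led by Anaeroplasma, averaged 1.81% ± 0.82 and 1.23% ± 0.819, with none of 3 tested ASVs past the threshold. Over all ASVs 7.14% were called, so these counts are no result about either list. The sign of the change of Anaeroplasma itself, log2 -0.29 (edgeR adjusted p = 0.802), turned on other scales. The uncultured clostridial groups, which include Clostridia UCG-014, summed to 12% to 22.2% in WT and 4.27% to 8.77% in KO libraries without overlap. Of their 60 tested ASVs, 5 rose and 4 fell, beside 10 and 12 of 308 over all ASVs. The 5 that rose met the read minimum through KO libraries alone, healthy or with DSS. Of these groups, vadinBB60 averaged 0.606% ± 0.359 and 1.05% ± 0.625, and it missed the threshold at family rank (log2 1.46 ± 0.51, edgeR adjusted p = 0.0517). Erysipelotrichaceae missed it by the same margin (log2 1.70 ± 0.60, edgeR adjusted p = 0.0517), and Lactobacillaceae had an edgeR adjusted p of 0.065.

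Several scarce genera had an unadjusted p under 0.05 without passing. Anaerotruncus took 0%, 0.0406%, 0.0404% and 0.0407% in WT and 0.199%, 0.0945%, 0.103% and 0.142% in KO (log2 2.52 ± 0.97, edgeR adjusted p = 0.169), without overlap. Harryflintia, Anaerovorax, Paludicola and the genus label Erysipelotrichaceae had negative log2 changes, with edgeR adjusted p between 0.169 and 0.2. Summed over genera that were higher in KO, the genus means differed by 31.6 percentage points, and by the same amount over those that were lower, since shares add up to 100%. Muribaculaceae with 13.10 points, Lactobacillus with 10.81, Clostridia UCG-014 with -9.92 and Parabacteroides with -8.54 (KO minus WT) accounted for 67.1% of the summed difference in both directions, in which a larger share of one genus lowers the shares of others.

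At the level of single sequences, the calls were mainly ASVs that one genotype lacked. Of the 10 ASVs that rose, 8 had no read in any healthy WT library, and of the 12 that fell, 9 had no read in any healthy KO library. Of 308 tested, 58 (18.8%) did not overlap between genotypes, 18 higher and 40 lower in KO. Reads at the minimum of 5 in 4 libraries came from 1 healthy genotype alone for 6 tested ASVs, 5 of them called (asv183, asv229, asv340, asv397 and asv432), and those had to differ. The 8 that rose without a healthy WT read had none in WT libraries with DSS either. They thus met that minimum through KO libraries alone, healthy or with DSS. The ASVs that fell summed to 4.79% to 13.5% of WT reads and 0.0763% to 0.93% of KO reads. Those that rose, other than asv1, summed to 0.0155% to 0.0678% of WT reads and 0.932% to 4.17% of KO reads.

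**Figure D4:**
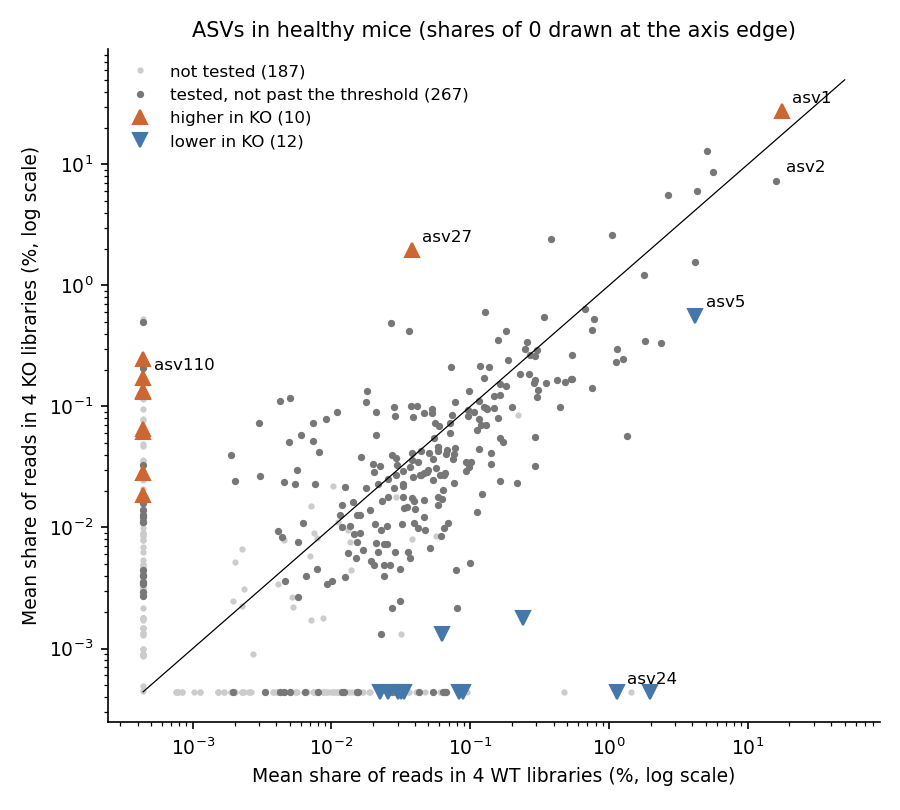
Mean share of reads (%, log scales) of the 476 ASVs in 4 healthy WT (horizontal) and 4 healthy KO (vertical) libraries, with ASVs at a mean of 0 drawn at the axis edge, triangles for the 10 ASVs higher and 12 lower in KO and a line where both means are equal. Most called ASVs lie on an edge, and asv1, at 17.6% in WT and 27.6% in KO, is the exception of highest abundance.

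In the NK4A136 group, asv27 took 0.0334%, 0.0345%, 0.0155% and 0.0678% in WT and 2.84%, 2.14%, 0.0266% and 2.85% in KO (log2 5.95 ± 1.28, edgeR adjusted p = 0.0209). KO replicate 2 lay within the WT range, and the call was lost without WT replicate 2 (edgeR adjusted p = 0.0583) or KO replicate 1 (0.0556). Another sequence of that group, asv15, took 0% to 0.893% in WT and 1.42% to 3.98% in KO without overlap and did not pass (log2 3.03 ± 1.26, edgeR adjusted p = 0.172). The most stable gains were asv110, an unclassified member of the Lachnospiraceae, at 0.247%, 0.122%, 0.121% and 0.2% in KO and no read in WT (edgeR adjusted p = 0.00153, at least 34-fold higher), and asv111, of the NK4A136 group, at 0.0294% to 0.252% in KO and no read in WT (edgeR adjusted p = 0.00792, at least 26-fold higher). Both met the read minimum through KO libraries alone, where they were high, and both passed in all 19 alternatives. The number of ASVs called was lower without single libraries: 11, 11, 8 and 15 without WT replicates 0 to 3, and 12, 3, 12 and 7 without KO replicates 0 to 3.

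The other ASVs that rose were asv100 and asv282 of the vadinBB60 group and asv432, an unclassified member of the Lachnospiraceae, with KO means of 0.0655%, 0.0283% and 0.0186% and no read in WT. Besides those of Clostridia UCG-014, Ruminococcus (asv24) and Monoglobus (asv53), those that fell were 7. Of these, 2 belonged to Incertae Sedis of the Ruminococcaceae, asv197 and asv397, with WT means of 0.0826% and 0.0223%. The others were asv49 of the vadinBB60 group (WT mean 0.0628%), asv340, an unclassified member of the Oscillospiraceae (0.0333%), asv205 of ASF356 (0.0317%), asv257 of GCA-900066575 (0.0301%) and asv156 of Harryflintia (0.0257%). The asv257 call passed in 7 of 18 alternatives (adjusted p from 0.00442 with DESeq2 to 0.212 with edgeR and no filter), and it was lost without WT DSS replicate 1 (edgeR adjusted p = 0.0578). In KO libraries 6 of these 7 had no read, and asv49 had reads in replicate 2 alone. Called ASVs of the vadinBB60 group, like those of Clostridia UCG-014, went in both directions, in part through the read minimum. Those that rose in either group met that minimum through KO libraries alone, healthy or with DSS. In Clostridia UCG-014, asv229 met it through healthy WT libraries alone. The 2 directions are thus no result about either group. Of 24 tested in the vadinBB60 group, 2 rose and 1 fell, beside 10 and 12 of 308 over all ASVs.

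**Figure D5:**
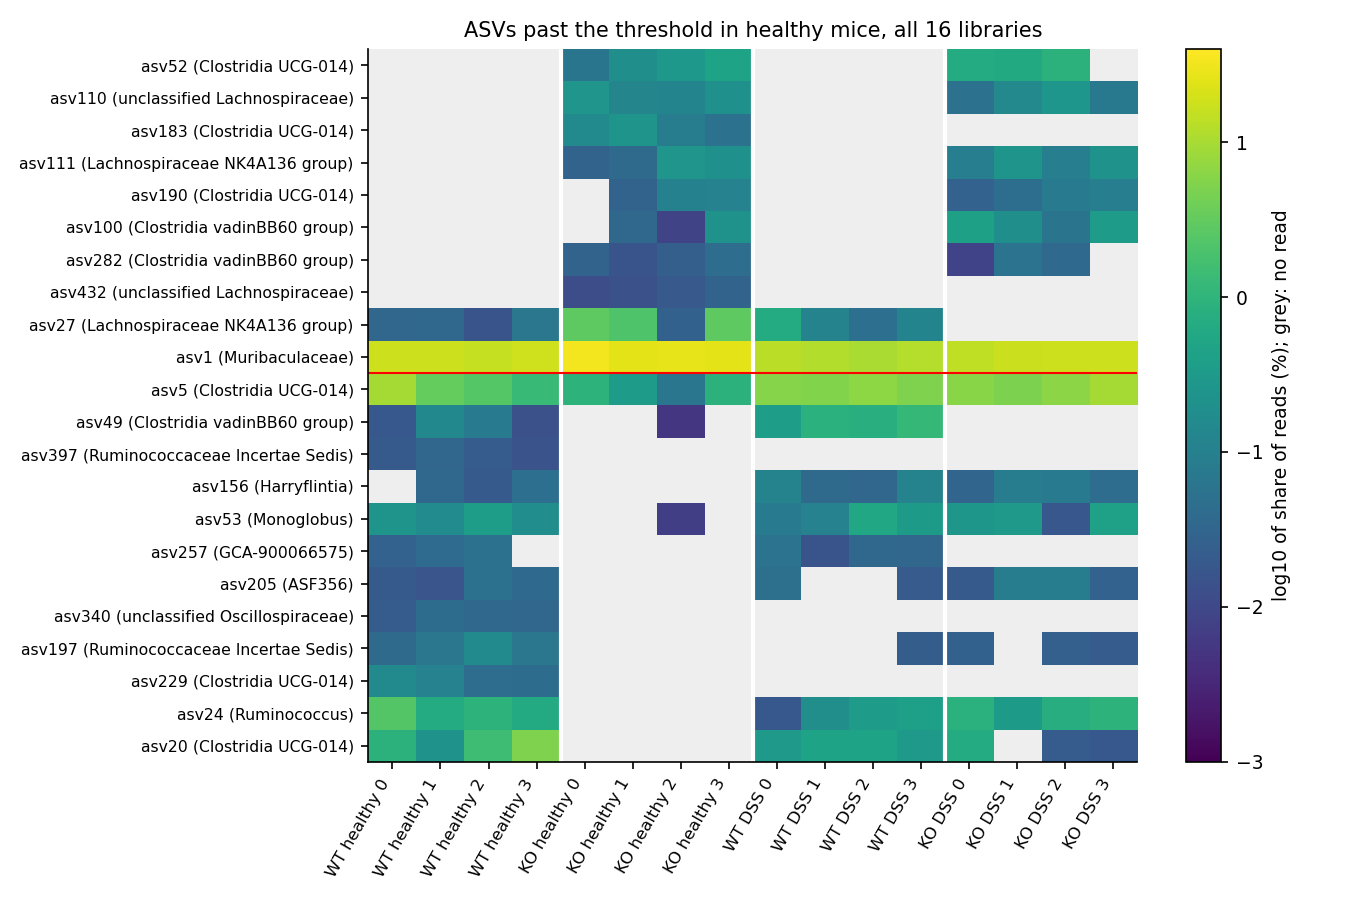
Share of reads (log10 of percent, colour; grey where no read was found) of the 22 called ASVs in all 16 libraries, grouped as healthy WT, healthy KO, WT with DSS and KO with DSS, with ASVs higher in healthy KO above the red line and lower ones below it. The 8 ASVs that rose and were absent from healthy WT libraries had no read in WT libraries with DSS either.

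Beside the DSS libraries, the sequences of 1 genotype divided as follows. None of the 8 called ASVs that healthy WT libraries lacked had a read in WT libraries with DSS, and 6 had reads in KO libraries with DSS. Of the 9 called ASVs that healthy KO libraries lacked, 6 had reads in WT libraries with DSS and 5 in KO libraries with DSS. These counts partly follow from the read minimum. The ASVs asv100, asv190, asv156 and asv257 had reads in 3 healthy libraries each, and so reached the minimum of 4 only with reads under DSS. Over all ASVs with healthy reads, 115 were seen in WT only and 99 in KO only. Of the 115, 38 (37 without WT DSS replicate 1) had reads in WT and 31 in KO libraries with DSS. Of the 99, 12 (also 12 without that replicate) had reads in WT and 28 in KO libraries with DSS. Ruminococcus, at 0 in healthy KO mice, averaged 0.231% in WT and 2.32% in KO mice with DSS.

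Of the 66 genera, 3 (4.55%) had a genotype effect under DSS that differed from the one in healthy mice: Ruminococcus (edgeR adjusted p = 3.19e-05), Monoglobus (0.042) and unclassified Oscillospiraceae (0.042). Without WT DSS replicate 1 these were 0.000393, 0.0613 and 0.0413, so Monoglobus no longer passed. The labels do not say whether the same replicate number marks the same animal at both time points. With genotype and number together as a block, Ruminococcus alone passed among the genera (edgeR adjusted p = 0.00839). Muribaculaceae, Clostridia UCG-014 and Parabacteroides did not pass this test at genus rank (edgeR adjusted p = 0.142, 0.42 and 1). A p that misses the threshold does not show that the genotype effects were alike.

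Diversity within libraries was described by evenness and number of ASVs. Shannon indices (natural log, at 49253 reads) were 3.24, 3.56, 3.57 and 3.64 in WT and 2.84, 3.02, 2.96 and 3.38 in KO replicates 0 to 3, overlapping through WT replicate 0 and KO replicate 3. The difference was -0.453 (two-sided exact permutation p = 0.0571). Inverse Simpson indices, which weigh the commonest ASVs more, were 11.2, 13, 14.7 and 14.4 in WT and 6.31, 8.78, 8.26 and 10.5 in KO without overlap (exact permutation p = 0.0286, the smallest possible). The most abundant ASV of a library held 17.8% ± 1.28 of WT and 27.6% ± 3.27 of KO reads, and the 5 most abundant held 52% ± 4.07 and 65% ± 5.73. The number of ASVs was 207, 248, 264 and 280 in WT and 226, 217, 220 and 260 in KO replicates 0 to 3 (difference -19, exact permutation p = 0.343).

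Between libraries, genotype took 57.9% of the Bray-Curtis variation of ASV shares (exact permutation p = 0.0286, the smallest possible). Every distance between a WT and a KO library, 0.331 to 0.535, lay above every distance within a genotype, 0.184 to 0.33. The share was 65.9% for genera and 66.9% for families. For phyla it was 39.4% and did not pass (exact permutation p = 0.0857). On presence alone (Jaccard distance) it was 36.2% (exact permutation p = 0.0286). The 90 ASVs found in all 8 libraries held 81.7% to 89.6% of reads, and ASVs of 1 genotype only held 6.74% ± 0.774 of WT and 3.46% ± 1.9 of KO reads, so most reads in every library belonged to ASVs that both genotypes carried.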

How the data were processed

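DNA from 16 stool samples was extracted and the V3-V4 part of the 16S rRNA gene amplified and sequenced in pairs on a MiSeq, per the labels' protocols. The authors deposited a table of counts, whole reads per ASV and library with a taxonomy of 7 ranks, and for each ASV the classifier's confidence as a fraction (at least 0.7). Cutadapt is named in the submitters' processing notes. The denoiser, classifier and database are not given in the sources used here.

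Counts were summed by Genus, Family and Phylum, and shares are percentages of a library's total reads. ASVs with no genus name (7.7% of healthy reads) were labelled by family as unclassified. Features with at least 5 reads in at least 4 of the 16 libraries were fitted with edgeR 4.0.16 (quasi-likelihood, TMM factors, R 4.3.3) over the 16 libraries in 4 groups, with Benjamini-Hochberg adjustment over all features of a rank and a threshold of 0.05. The tested genera held 97.7% to 100% of reads. Library values were compared by exact permutation over 70 relabellings (numpy 2.4.6). A fold against a group without reads uses 3 reads per library as a floor.

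The members and lists were chosen with earlier results of these data known. Named were all called taxa, the 12 most abundant genera and ASVs, genera with an unadjusted p under 0.05, phyla of at least 0.1%, families of at least 1%, and list members. Alternatives were other scale factors, DESeq2 1.42.0, limma 3.58.1 on centred log ratios, other filters, healthy libraries alone, the replicate number as a block and leaving out each healthy library. Library totals over all reads, leaving out WT DSS replicate 1, and for the comparison with DSS a block of genotype and number, were added after seeing the data. The labels do not say whether replicate numbers pair WT with KO libraries. Deviations from the group means correlated by 0.01 to 0.09 between same-numbered WT and KO libraries, and by -0.12 to 0.12 between other numbers. Such a check cannot show that the libraries were unpaired.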

Additional observations from a re-analysis of the deposited data

Results flagged for a closer look

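In 12 of 146 groups of 4 libraries, the highest or lowest library stood apart from the other 3 by Dixon's criterion. For independent, normally distributed values chance gives about 1 group in 20, which cannot be set against this count. Groups with reads in 1 library alone meet the criterion by construction, and some groups hold the same reads at several ranks. Lactobacillus and its family Lactobacillaceae stood at 13.1% of reads in KO replicate 3 and 24% to 24.9% in the other KO libraries. Ruminococcaceae stood at 1.65% in KO replicate 3 against 0.76% to 0.878%. Firmicutes stood at 63.3% in WT replicate 2 against 56.9% to 57.1%. The Ruminococcus sequence asv24 stood at 2.29% in WT replicate 0 against 0.646% to 0.923%, and Anaerotruncus at 0% there against 0.0404% to 0.0407%. Some KO groups had reads in 1 library alone: Monoglobus, Monoglobaceae and asv53 at 0.0071%, asv49 at 0.00533% and the genus label Erysipelotrichaceae at 0.00984%. The vadinBB60 sequence asv100 reached 0.218% in KO replicate 3 and at most 0.0354% in the others.

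The genotype effect differed between healthy mice and mice with DSS for several taxa of the report (edgeR interaction test, adjusted p given, with the value without WT DSS replicate 1 after it). Whether the same number marks the same animal in both states is not stated in the labels. Among genera these were Ruminococcus (3.19e-05, 0.000393), unclassified Oscillospiraceae (0.042, 0.0413) and Monoglobus (0.042, 0.0613). Ruminococcus was absent from healthy KO libraries but averaged 2.32% in KO and 0.231% in WT mice with DSS. Monoglobus averaged 0.255% in KO and 0.272% in WT mice with DSS, and unclassified Oscillospiraceae 4.31% and 0.892%. Among families these were Ruminococcaceae (0.00778, 0.0103), Monoglobaceae (0.00778, 0.0158), the vadinBB60 group (0.0329, 0.0525) and Muribaculaceae (0.0474, 0.0103), which averaged 21.4% in KO and 15.6% in WT mice with DSS.

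Single sequences showed the sharpest turns. Both Lactobacillus murinus ASVs were included, asv4 (0.00232, 0.00449) and asv14 (0.000471, 0.00168): asv4 averaged 12.8% in healthy KO and 5.1% in healthy WT libraries, but 0.00354% in KO and 1.01% in WT libraries with DSS. The NK4A136 sequence asv27 (0.000471, 0.00168), higher in healthy KO mice, had no read in KO libraries with DSS and averaged 0.241% in WT. Its relative asv15 (0.0468, 0.063) averaged 1.03% in KO and had no read in WT libraries with DSS. The Ruminococcus sequence asv24 gave 0.000471 and 0.00172. The ASVs asv20 and asv205 gave 0.0468 and 0.063, asv53 and asv156 gave 0.0468 and 0.0828, and asv197 gave 0.0468 and 0.0782.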

How the results depend on the processing

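Ruminococcus and Monoglobus (genus rank) and asv24, asv110 and asv111 passed in every alternative run, and no called genus, family or ASV changed direction in any. Main counts were 4 genera, 3 families and 22 ASVs. Families numbered 5 on total reads alone or with healthy libraries alone and 12 with DESeq2. ASVs numbered 39 with DESeq2 (14 higher, 25 lower) and 49 with limma on centred log ratios (27 higher, 22 lower). The split was 17 higher and 9 lower with no filter. With 1 healthy library left out, counts were 2 to 6 genera, 2 to 5 families, 3 to 15 ASVs and 1 to 5 genera (main 3) in the comparison with DSS. Without WT DSS replicate 1 there were 3 genera, 4 families and 22 ASVs. The Shannon difference became one of -4.88 past the threshold as the inverse Simpson index, and the genotype share at phylum rank was 39.4%. The causes were not tested.

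With the replicate number as a block, 4 genera, 4 families and 7 ASVs were called, 6 of them among the 22, and 2 genera in the comparison with DSS. By an exact sign-flip test of the 4 same-numbered differences, the Shannon p was 0.125, the smallest that test can give. ASVs called in the comparison with DSS numbered 5, against 17 without the block and 4 without WT DSS replicate 1. Whether numbers pair WT with KO libraries is not stated in the labels. Healthy and DSS libraries of one genotype and number may come from the same animal, which the labels do not state, and their deviations correlated by -0.11 to 0.08. With genotype and number together as a block, added after seeing the data, 1 genus and 6 ASVs passed in the comparison with DSS.

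Directions that turned were all of taxa that did not pass (log2). Unclassified Lachnospiraceae turned to 0.07 (TMMwsp) and 0.37 (centred log ratios). Anaeroplasma turned to 0.03 (RLE, DESeq2), 0.08 (TMMwsp), and 0.13 (centred log ratios), and stood between -0.78 and 0.21 with a library left out. Colidextribacter, at -0.00, turned to 0.21 (RLE, DESeq2, healthy libraries alone, totals over all reads, without WT DSS replicate 1), 0.33 (TMMwsp), 0.60 (centred log ratios), and 0.10 (stricter filter), and stood between -0.20 and 0.32 with a library left out. Lachnospiraceae turned to -0.20 on total reads alone and stood between -0.49 and 0.64 with a library left out, and Oscillospiraceae turned to 0.05 (centred log ratios). Acholeplasmataceae, at 0.16, turned to -0.03 (TMMwsp), -0.55 (total reads), -0.30 (no filter), -0.04 (stricter filter), and -0.17 (healthy libraries alone), and stood between -1.14 and 0.10 with a library left out. The Anaeroplasma sequence asv11 turned to 0.15 (no filter) and stood between -0.68 and 0.52 with a library left out, and Proteobacteria between -0.01 and 0.63. Shares carry no absolute amounts. A count of 0 in a library allows a share of up to 0.00452% to 0.00609% (3 reads).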
